A study of Homo sapiens with 40 samples.

Results

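The gene described here is A2M, which encodes alpha-2-macroglobulin, together with the genes whose signal followed it most closely over all arrays. A2M was taken as every probe set that carried A2M as its only gene symbol, which gave 2 probe sets for 1 gene of the 19775 genes that the array names by a single symbol. It had been chosen because its signal was seen to differ between the treatments, so its levels are given as a description, with no test. The 12 genes most like it and the 8 most unlike it were chosen by their correlation with it over the 40 arrays, and their levels are likewise a description.

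Alpha-2-macroglobulin is a large secreted protein that inhibits proteases of many classes. A protease cuts its bait region, the protein folds around the protease and traps it, and the complex is then taken up by cells through the receptor LRP1. It also carries growth factors and cytokines. In the body it is made mainly by hepatocytes, and in the rat its gene is a textbook acute-phase gene driven by interleukin-6 through the factor STAT3.

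The cells were A2058, an established human melanoma line, so every group shares this 1 line. They received a single treatment with BKM120 (levels IC30, IC50 and IC90 (max) in the labels), with BEZ235 at IC50, IC90 and max, with GDC0941 at IC50, IC90 and max, or with the solvent DMSO, and RNA was collected at 24 h. BKM120 (buparlisib) and GDC0941 (pictilisib, written GCD0941 in the labels) inhibit PI3K, the lipid kinase upstream of AKT, and BEZ235 (dactolisib) acts on mTOR as well as PI3K. Each of the 10 groups held 4 biological replicates, each on its own 1-colour oligonucleotide array, and nothing in the labels says how the replicates were separated, so the errors measure the spread between these samples of 1 line. The sources used here give neither the molar concentrations nor the response on which the IC levels were set, so levels of the same name are not known to be matched doses in any other sense.

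Signal is given as linear array intensity in the authors' units, in which each array has a mean of 150 after the brightest and dimmest 2% of probe sets are left out. Differences are given as log2(intensity + 16), which makes differences of dim genes smaller than their true fold. Of the arrays, 1 had degraded RNA. In BEZ235 IC50 replicate 3 the GAPDH 3'/5' ratio was 3.44, against 1.05 to 1.26 on the other 39 arrays, and the ACTB 3'/5' ratio was 27.2, against 1.58 to 2.33. A2M levels at BEZ235 IC50, the ranges of the correlations and the count of calls at BEZ235 IC50 are given with and without it. The other limma results share 1 estimate of the spread, which includes that array. Several of their counts without it are given at the end. The 7 melanoma and pigment-cell markers MLANA, PMEL, TYR, MITF, SOX10, S100A1 and S100B were all above the limit for testing, and MITF, the lineage's transcription factor, had 1591.6 to 2216.3 over the 40 arrays. Of the other cell types that make A2M or could be admixed, hepatocyte markers had 0 of 4 genes bright enough to test, with the plasma protein TTR at 0.7 to 7.9 and albumin, ALB, at a median of 4.8 and at most 108.4. Of the 4 endothelial markers, CDH5 and VWF each had 0.3 to 8, while PECAM1 (9.5 to 22.5) and KDR (7.7 to 44.5) passed the limit. The leukocyte marker PTPRC had 0.3 to 7.4 and the astrocyte marker GFAP 0.2 to 4.6. The summed signal of the 4 endothelial markers was 55.9 to 68.6 at BEZ235 max, 37.4 to 53.5 at BKM120 IC90 (max), 34.9 to 52 at GDC0941 max and 52.1 to 66.8 in DMSO. Of the 4 leukocyte markers only LYZ, the lysozyme gene, was bright enough to test (90.6 to 273.5), and the sum of the 4 was 95.1 to 159.7 at BEZ235 max, against 181.5 to 224.2 in DMSO. Of the 4 fibroblast markers, LUM had 752.5 to 1548.6, COL1A1 14.3 to 73.4, DCN 11.6 to 35.2 and COL1A2 0.2 to 21, and their sum was 788.2 to 1050.7 at BEZ235 max, 1160 to 1314.5 at BKM120 IC90 (max) and 1081.4 to 1325.8 at GDC0941 max, against 1164.1 to 1380.4 in DMSO. The 7 melanoma markers summed to 8707.4 to 9143.1 at BEZ235 max, 9704 to 9923.1 at BKM120 IC90 (max) and 10654.3 to 11956.6 at GDC0941 max, against 7801.1 to 8334.5 in DMSO. The part of these markers in the A2M levels was not tested. With bulk RNA scaled to 1 mean per array, a change in the share of cells and a change in RNA per cell cannot be told apart.

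Sequences are shown for the 5 genes among the most alike and most unlike whose promoters held a searched motif that bears on PI3K output or on the cell cycle, because these genes moved together with A2M or opposite to it. RefSeq promoters of GRCh38.p14, from 250 bases before to 50 after each listed start, were searched on both strands for GTAAACA, the core bound by the FOXO factors that AKT keeps out of the nucleus, and for TTTGGCGC, a site bound by E2F factors. The capitals mark the motif, and up to 40 bases are printed on each side, 5′ to 3′ on the gene's strand. The first 3 are genes most like A2M and the last 2 are genes most unlike it.
TXNIP: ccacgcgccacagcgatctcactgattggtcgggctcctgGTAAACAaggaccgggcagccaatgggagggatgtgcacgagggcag
CRBN: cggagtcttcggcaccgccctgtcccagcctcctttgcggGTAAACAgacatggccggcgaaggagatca
WDR45: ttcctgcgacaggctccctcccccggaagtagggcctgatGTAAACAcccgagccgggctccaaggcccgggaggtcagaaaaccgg
CDC6: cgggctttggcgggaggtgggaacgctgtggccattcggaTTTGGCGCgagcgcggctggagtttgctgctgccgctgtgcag
CDC25A: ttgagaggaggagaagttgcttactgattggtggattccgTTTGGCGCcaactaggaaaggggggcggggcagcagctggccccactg
These windows lie at chr1:145996657-145996743 (minus strand) for TXNIP, chr3:3179668-3179737 (minus) for CRBN, chrX:49079843-49079929 (minus) for WDR45, chr17:40287846-40287928 (plus) for CDC6 and chr3:48188414-48188501 (minus) for CDC25A.

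Among the 12 genes most like A2M, 3 (TXNIP, CRBN and WDR45) had GTAAACA in at least 1 listed promoter, which was 4 of their 23 promoters, while the motif was found in 3.42% of all 35116 promoters searched. TTTGGCGC was in 0 of the 12 and in 2 of the 7 most unlike genes that had a promoter in the table (CDC6 and CDC25A). This was 2 of the 8 promoters of the 7 genes, against 0.65% of all promoters. The palindrome TTCNNNGAA, bound by STAT factors, was in 0 of the 12 and 0 of the 7, against 7.66% of all promoters. The E-box CACGTG was in 2 of the 12 (LZTFL1 and WASHC2C) and 1 of the 7 (LIN28B). This was 2 of 23 and 1 of 8 promoters, against 7.26% of all promoters. Promoters on chromosome 8 were not among those searched. The motifs were chosen after the genes were known, genes with several listed starts count more than once among the promoters, and a match is only the presence of these letters in the window.

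A2M lies on chromosome 12 of GRCh38.p14, from 9067708 to 9116229, between PZP (9136472 to 9208395) and M6PR (8940361 to 8949645), and the longer KLRG1 (8950044 to 9215570) spans it. The antisense gene A2M-AS1 (9065177 to 9068055) overlaps its end. The brighter of the 2 A2M probe sets is used throughout. The other had 1.1 to 21.3 over the 40 arrays with a median of 7.7, lay below the limit for testing, and had a correlation of 0.20 with the brighter one.

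A2M was higher than in DMSO in every one of the 9 treatments, most of all at IC90 and max of BEZ235. It had 68.9, 63.9, 54.7 and 74.6 in DMSO. With BKM120 it had 129.6, 123.5, 133.4 and 148.2 at IC30, then 115.8, 114.7, 121.8 and 151.5 at IC50, and 303.1, 293.6, 293.7 and 339.1 at IC90 (max). None of these 12 values overlapped those of DMSO, and the 4 at IC90 (max) stood clear of the 8 at the lower levels.

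With BEZ235, A2M had 216.8, 209.8, 376 and 181.1 at IC50, then 432.8, 515.5, 466.3 and 427.9 at IC90, and 617.1, 558, 482.4 and 505.2 at max. The value of 376 is the array with degraded RNA, and the other 3 at IC50 lay between 181.1 and 216.8. With GDC0941 it had 150.2, 120.1, 127 and 120.5 at IC50, then 151.8, 147, 163 and 146.9 at IC90, and 288.5, 240.4, 303.7 and 311.2 at max. The first 2 levels of GDC0941 overlapped, and the 4 values at max stood above both.

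**Figure D1:**
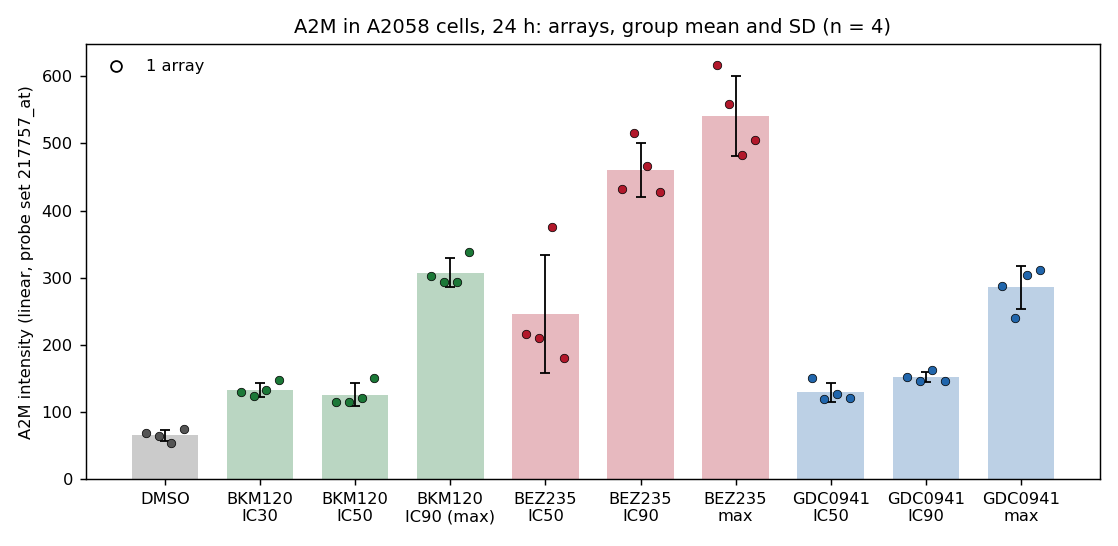
Signal of A2M as linear intensity on an axis that starts at 0, for DMSO and the levels of each compound from low to high. Points are single arrays, bars the mean of 4 and error bars its SD, and the 4 DMSO values (54.7 to 74.6) lie below every treated value while BEZ235 max reaches 482.4 to 617.1.

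As means, A2M stood at 65.5 ± 8.44 in DMSO (SD, n = 4 here and below). With BKM120 the means were 134 ± 10.5, 126 ± 17.3 and 307 ± 21.6 from the lowest to the highest level, with BEZ235 246 ± 88.1, 461 ± 40.4 and 541 ± 59.99, and with GDC0941 129 ± 14.2, 152 ± 7.57 and 286 ± 31.8. The log2 differences from DMSO were 0.88, 0.80 and 1.99 for BKM120 (SE 0.09, 0.11 and 0.09), 1.64, 2.55 and 2.77 for BEZ235 (SE 0.23, 0.10 and 0.11) and 0.84, 1.05 and 1.89 for GDC0941 (SE 0.10, 0.08 and 0.11). On the linear scale the mean at BEZ235 max was 8.25 times that in DMSO, that at BKM120 IC90 (max) 4.69 times and that at GDC0941 max 4.36 times. Without the degraded array the BEZ235 IC50 mean was 203 ± 18.9 (n = 3) and its log2 difference 1.42. These 9 differences share the 4 DMSO arrays.

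From low to high the groups ran DMSO, BKM120 IC50, GDC0941 IC50, BKM120 IC30, GDC0941 IC90, BEZ235 IC50, GDC0941 max, BKM120 IC90 (max), BEZ235 IC90 and BEZ235 max. Neighbours in this order were separated without overlap at 3 places only: BKM120 IC50 over DMSO, BEZ235 IC50 over GDC0941 IC90, and BEZ235 IC90 over BKM120 IC90 (max). The other neighbouring groups overlapped. For GDC0941 max (240.4 to 311.2) over BEZ235 IC50 the overlap came only from the array with degraded RNA, without which BEZ235 IC50 had 181.1 to 216.8. The order of the remaining overlapping neighbours is within the spread of the arrays.

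The dose steps differed in place between BEZ235 and GDC0941. BKM120 IC50 differed from IC30 by -0.08 on the log2 scale (SE 0.10, overlapping), and IC90 (max) stood 1.19 above IC50 (SE 0.10). BEZ235 IC90 stood 0.91 above IC50 (SE 0.23), or 1.12 without the degraded array, and max stood 0.22 above IC90 (SE 0.10, overlapping). GDC0941 IC90 stood 0.21 above IC50 (SE 0.07, overlapping) and max 0.84 above IC90 (SE 0.09). Thus the step with clearly separated arrays was from IC50 to IC90 for BEZ235 and from IC90 to max for GDC0941. For BKM120 it was from IC50 to IC90 (max). That level is both its IC90 and its highest, so the place of this step cannot be set against the other compounds. The intervals between doses are not known, so the steps are not compared in size.

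At levels of the same name, BEZ235 gave the higher A2M signal. At IC50 it stood 0.84 above BKM120 (SE 0.23) and 0.80 above GDC0941 (SE 0.23), with no overlap, and 0.63 and 0.59 without the degraded array. BKM120 and GDC0941 at IC50 differed by -0.04 (SE 0.11) and overlapped. At IC90, with the BKM120 level named IC90 (max), BEZ235 stood 0.56 above BKM120 (SE 0.08) and 1.5 above GDC0941 (SE 0.07), and BKM120 stood 0.94 above GDC0941 (SE 0.06), each with no overlap. At the highest level of each compound, BEZ235 stood 0.78 above BKM120 (SE 0.09) and 0.88 above GDC0941 (SE 0.11), while BKM120 differed from GDC0941 by 0.10 (SE 0.09) and overlapped it. The A2M gap between BKM120 and GDC0941 was thus seen at the levels named IC90, and at neither IC50 nor the highest levels were their arrays separated. The IC90 and highest-level comparisons use the same BKM120 arrays, so they differ only in the GDC0941 level, IC90 or max.

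The genes most like A2M were ranked by Pearson correlation of log2 signal over 40 arrays among the 11864 other genes bright enough to test. The points share arrays, scaling and 4 to a group, so that the correlation reflects mostly the 10 group means and carries no p. Of these genes, 55 had a correlation over 0.9 and 36 one under -0.9, with a median of 0.07. The 12 highest were WHRN (0.97), BBS1 (0.96), TXNIP (0.96), WASHC2C (0.95), SPATA20 (0.94), LZTFL1 (0.94), CRBN (0.94), KLHDC1 (0.94), TCTN1 (0.94), SLC24A1 (0.93), STAT5A (0.93) and WDR45 (0.93). The next gene, ETHE1, had 0.932, so the edge of the list is not a break. KLHDC1 was dim, with 9.6, 14, 5.7 and 8.6 in DMSO. That mean of 9.48 lay under the limit of 13.6, so KLHDC1 was ranked only through brighter treated groups. Unlike A2M, it overlapped DMSO at BKM120 IC30, BKM120 IC50 and GDC0941 IC50. Spearman's rho for the 12 ran from 0.89 to 0.96, and Pearson's r without the 2 arrays of highest A2M, both at BEZ235 max, from 0.92 to 0.97. Without the array with degraded RNA, r of the 12 ran from 0.93 to 0.97.

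**Figure D2:**
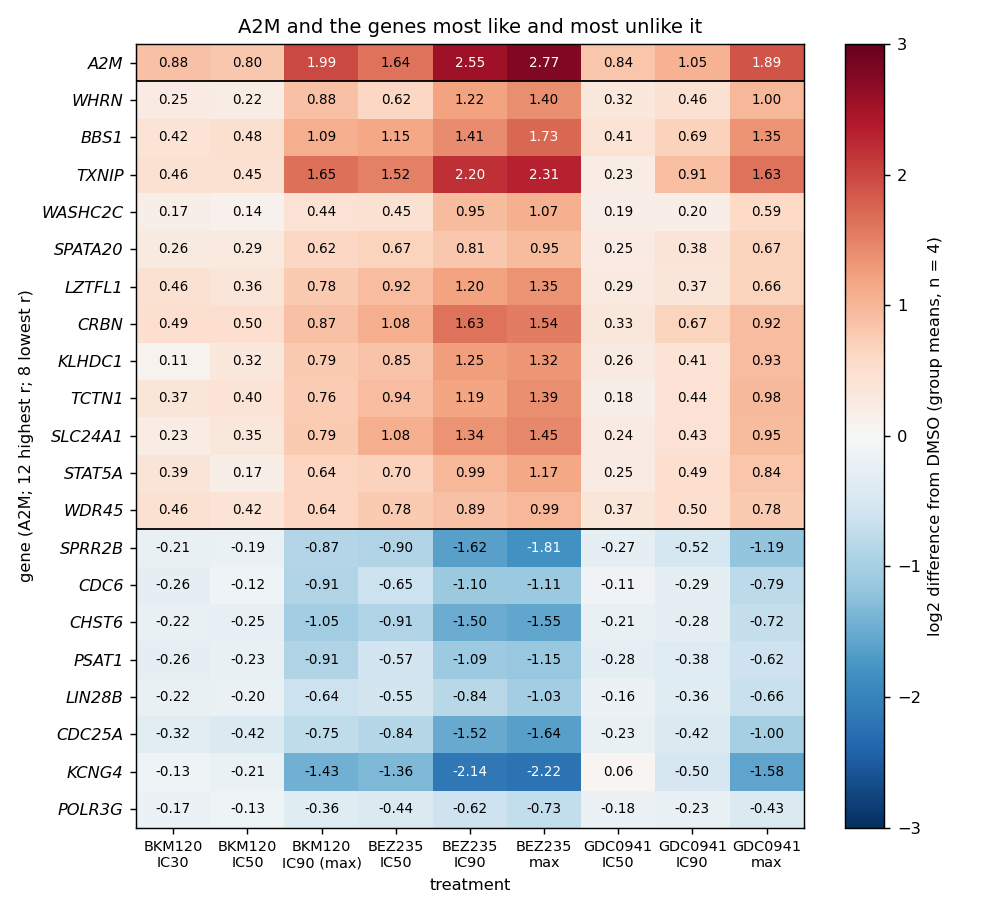
Log2 difference from DMSO (group means of 4 arrays, printed in each cell and coloured) at the 9 treatments for A2M, the 12 genes most like it and the 8 most unlike it. A2M reaches 2.77 and TXNIP 2.31 at BEZ235 max, where SPRR2B stands at -1.81.

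Several of these genes have known roles. WHRN encodes whirlin, a scaffold protein of hair cells and photoreceptors. BBS1 is a subunit of the BBSome, the complex that carries membrane proteins in primary cilia, LZTFL1 regulates that complex, and TCTN1 belongs to the transition zone at the base of the cilium. WASHC2C is a subunit of the WASH complex on endosomes, WDR45 acts in autophagy, and CRBN is the substrate receptor of a ubiquitin ligase and the target of thalidomide. TXNIP binds thioredoxin and limits glucose uptake, and STAT5A is a transcription factor of cytokine signalling. The WASHC2C probe set is of a design that can also bind related genes, and WASHC2C has a close paralogue, so its signal may hold both.

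WHRN had 142.3, 142.2, 145.4 and 158 at BKM120 IC90 (max), 250.2, 214.8, 210.5 and 198.8 at BEZ235 max, and 172.3, 153.9, 169.1 and 150.9 at GDC0941 max, against 70.8, 68.4, 75.6 and 76.1 in DMSO. BBS1 had 155.7, 143.5, 166.9 and 161 at BKM120 IC90 (max), 285, 228.8, 272.8 and 233.2 at BEZ235 max, and 213.4, 172, 183.6 and 198.2 at GDC0941 max, against 77.7, 68.5, 56.6 and 59.3 in DMSO. For both genes the arrays of each of these treatments stood above all DMSO arrays, with BEZ235 max the highest group. The log2 differences from DMSO at BKM120 IC90 (max), BEZ235 max and GDC0941 max were 0.88, 1.40 and 1.00 for WHRN and 1.09, 1.73 and 1.35 for BBS1, so A2M, with 1.99, 2.77 and 1.89, had the wider range.

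At these 3 levels TXNIP was the nearest to A2M in size of difference among the 12 genes, while at GDC0941 IC50 it stood at 0.23, below BBS1 at 0.41 and A2M at 0.84. It had 984.3, 957.8, 1039.5 and 983.8 at BKM120 IC90 (max), 1572.3, 1582, 1529 and 1604.8 at BEZ235 max, and 1052.2, 886.2, 1048.7 and 927.2 at GDC0941 max, against 300.8, 316.6, 301 and 300.5 in DMSO. Its log2 differences were 1.65, 2.31 and 1.63. CRBN had 586.6, 617.1, 619.9 and 609.9 at BEZ235 max, against 177.9, 204.9, 216.6 and 199 in DMSO.

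STAT5A had 163.4, 169.9, 157.1 and 166.3 at BKM120 IC90 (max), 239.7, 233.4, 257.5 and 240.2 at BEZ235 max, and 215.8, 181.7, 172.4 and 191.4 at GDC0941 max, against 90.6, 104.6, 98.4 and 104 in DMSO. At BKM120 IC50 it had 94.5, 102.1, 134.2 and 127.2 and overlapped DMSO, unlike A2M, which did not overlap DMSO there. At BEZ235 IC50 it had 152.2, 159.2, 265 and 132.1, with the highest value again on the array with degraded RNA. WHRN at BEZ235 IC50 had 106.1, 117.9, 163.7 and 100.6, and BBS1 157.4, 151.2, 217 and 140.5, with that same array the highest.

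The correlations of deviations from the group means show what is left within groups. For the 12 genes they ran from 0.02 (TXNIP) to 0.74 (WHRN) over all 40 arrays, and from -0.10 (CRBN) to 0.46 (WHRN) over the 39 arrays without the degraded one. For STAT5A the correlation was 0.66 with that array and 0.26 without it, for SPATA20 0.67 and 0.37, and for LZTFL1 0.42 and -0.09. For TXNIP it was 0.02 with the array and 0.27 without it. Among the 12 genes that ranked highest by the deviations alone, 0 were in the list above, with or without that array.

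**Figure D3:**
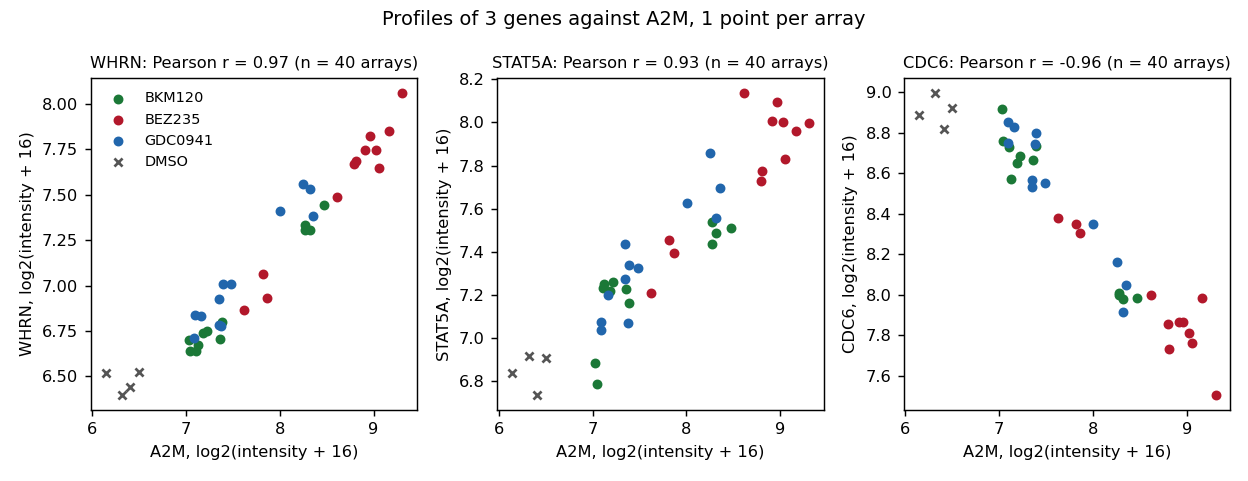
Signal of WHRN, STAT5A and CDC6 against that of A2M, both as log2(intensity + 16), with 1 point for each of 40 arrays coloured by compound. DMSO arrays lie at the low end of A2M and the BEZ235 IC90 and max arrays at the high end, with correlations of 0.97, 0.93 and -0.96 that follow the groups.

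The genes most unlike A2M were SPRR2B (-0.96), CDC6 (-0.96), CHST6 (-0.95), PSAT1 (-0.95), LIN28B (-0.94), CDC25A (-0.94), KCNG4 (-0.94) and POLR3G (-0.94), and the next, SKP2, had -0.935. CDC6 loads the replicative helicase at origins, CDC25A is the phosphatase that activates the cyclin-dependent kinases at entry into S phase, PSAT1 makes serine, LIN28B blocks let-7 maturation and POLR3G is a subunit of RNA polymerase III. SPRR2B belongs to a family of nearly identical genes and its probe set is of a cross-hybridising design, so the signal cannot be assigned to SPRR2B alone.

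CDC6 had 236.5, 241.6, 239.7 and 237.3 at BKM120 IC90 (max), 165.8, 237.4, 217.4 and 208.3 at BEZ235 max, and 270.5, 309.8, 225.3 and 248.6 at GDC0941 max, against 435.4, 494.2, 458 and 469.9 in DMSO. CDC25A had 339.6, 352.8, 360 and 388.1 at BKM120 IC90 (max), 187.9, 195.2, 187.5 and 179.1 at BEZ235 max, and 309.3, 292.6, 294.1 and 310.7 at GDC0941 max, against 609.5, 624.7, 632.1 and 603.7 in DMSO. Both genes stood below DMSO on every array of the 3 groups, with log2 differences of -0.91, -1.11 and -0.79 for CDC6 and -0.75, -1.64 and -1.0 for CDC25A. SPRR2B had 178.5, 207.3, 215.5 and 213.2 at BEZ235 max, against 790.6, 743.2, 722.8 and 747.9 in DMSO. For the 8 genes the correlation of deviations ran from -0.74 (SPRR2B) to 0.19 (CDC25A), and from -0.46 to 0.02 without the degraded array. Their r over the arrays without it ran from -0.98 to -0.94.

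The genes around the function of A2M were read from lists of its family, its receptors and their partners, the interleukin-6 and STAT3 pathway, acute-phase genes, endoproteases, other protease inhibitors, growth factors and cytokines it binds, and its neighbours on the chromosome. Of 210 genes listed, 188 were on the array and 118 were bright enough to be tested, with limma over all 40 arrays and the Benjamini-Hochberg adjustment over all 11865 genes tested. At BKM120 IC90 (max), 27 of the 118 rose and 28 fell at an adjusted p under 0.05, where 34.5% of all genes tested were called, 17.3% higher and 17.3% lower. At BEZ235 max 34 rose and 38 fell, where 57.9% of all were called (32.7% higher, 25.2% lower). At GDC0941 max 32 rose and 39 fell, where 43.9% were called (25.5% higher, 18.4% lower). The shares of the 118 called were 46.6%, 61% and 60.2%. Among the genes counted as risen at each of these levels was STAT5A, which had been chosen for its values, and without it the shares of the other 117 were 46.2%, 60.7% and 59.8%. The median log2 difference of the 118 was 0.00, -0.04 and 0.00 in these 3 comparisons, against 0.00, 0.04 and 0.03 over all genes tested.

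At the lower levels, 19 of the 118 rose and 26 fell at BKM120 IC30 (all genes 21.2%, made up of 13.1% higher and 8.17% lower), and 21 rose and 24 fell at BKM120 IC50 (all genes 19.9%, made up of 12.5% higher and 7.34% lower). With BEZ235, 41 of the 118 rose and 37 fell at BEZ235 IC50 (all genes 45.5%, made up of 26.3% higher and 19.2% lower), and 34 rose and 42 fell at BEZ235 IC90 (all genes 55%, made up of 30.8% higher and 24.1% lower). At BEZ235 IC50 these 78 calls became 68 without the array with degraded RNA, and 34 when the 8 arrays of these 2 groups were fitted alone. With GDC0941, 13 of the 118 rose and 24 fell at GDC0941 IC50 (all genes 16%, made up of 9.81% higher and 6.15% lower), and 18 rose and 30 fell at GDC0941 IC90 (all genes 25.2%, made up of 15.2% higher and 9.97% lower). The listed genes thus moved in both directions at every level. At these lower levels too the 118 genes include STAT5A, chosen for its likeness to A2M. They also include LRP1 and JAK3, which lay under the limit for testing on all DMSO arrays.

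**Figure D4:**
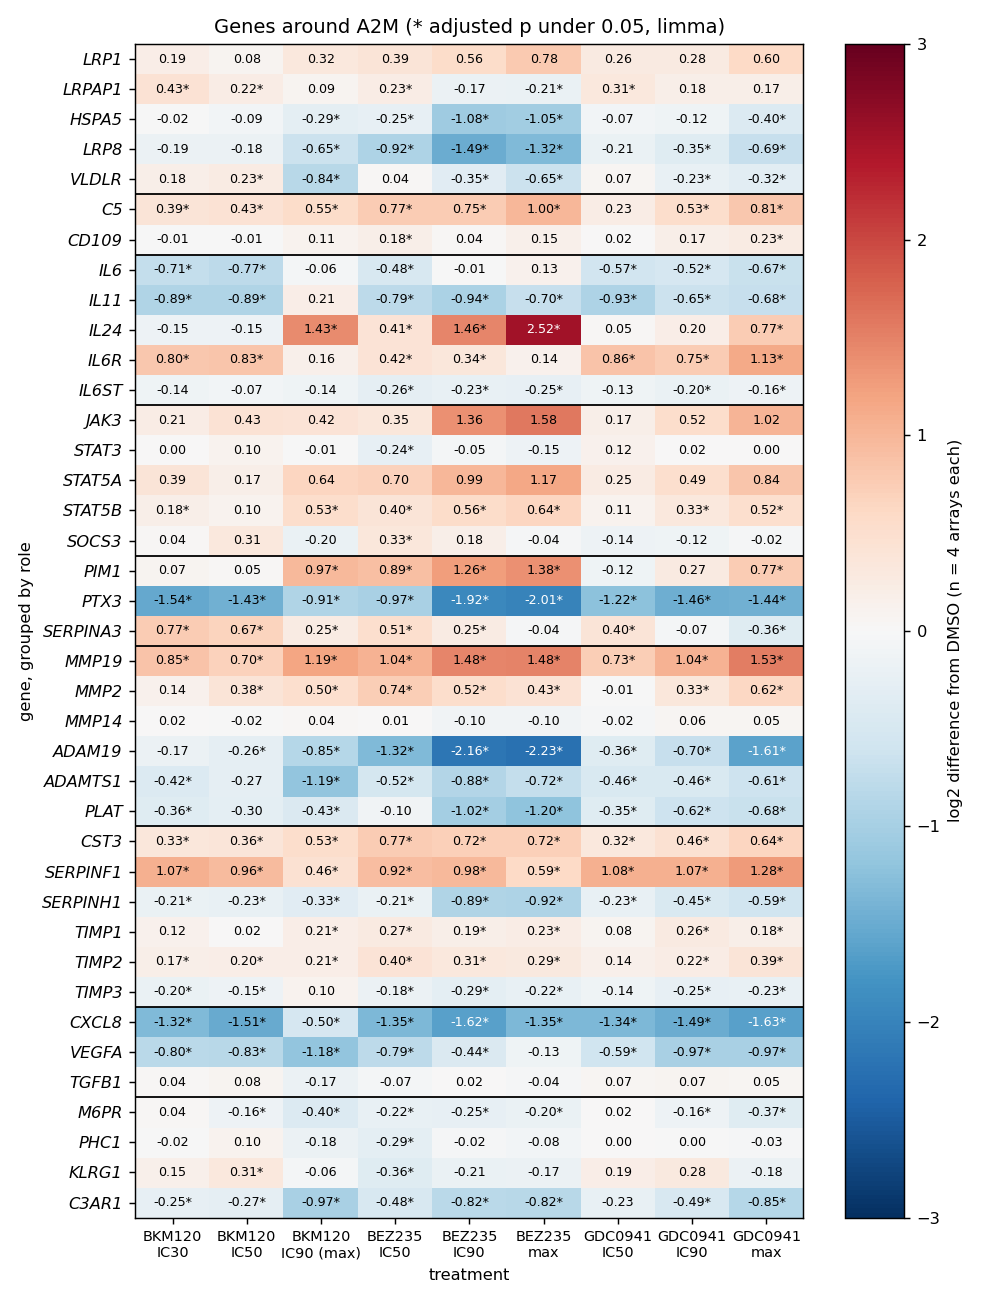
Log2 difference from DMSO at the 9 treatments for genes of the A2M lists, grouped by role, with the value in each cell and an asterisk where the limma adjusted p was under 0.05 (none is drawn for STAT5A, chosen for its likeness to A2M, or for LRP1 and JAK3, too dim in DMSO). HSPA5 has -1.05 and IL24 2.52 at BEZ235 max, and IL6 -0.71 at BKM120 IC30.

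Of the macroglobulin family, 6 genes were on the array and 2 were tested. C5, a complement protein of the same fold, had 63.6, 81.1, 100.5 and 71.7 at BKM120 IC90 (max), 122.4, 101, 122.5 and 108.1 at BEZ235 max, and 103.9, 91.2, 92.4 and 101.2 at GDC0941 max, against 51.3, 49.5, 45.7 and 47.4 in DMSO. All 12 treated values lay above DMSO, and C5 rose by 0.55, 1.00 and 0.81 on the log2 scale (SE 0.10 each; limma adjusted p 3.74e-05, 7.57e-11 and 2.26e-08). CD109, a membrane-anchored member, differed by 0.11 (adjusted p 0.233) at BKM120 IC90 (max), 0.15 (0.08) at BEZ235 max and 0.23 (0.00853) at GDC0941 max. The closest relatives of A2M were dim: PZP had 0.2 to 6.4 and A2ML1 0.8 to 6.7 over the 40 arrays, and neither was tested. The antisense gene A2M-AS1 had 19.4, 22.5, 28.5 and 16.4 at BEZ235 IC90, against 8.8, 8.8, 8.4 and 11.5 in DMSO, with 8 to 28.5 over all arrays. BEZ235 IC90 is the group that holds the highest A2M-AS1 array, and the other treatments are not given here for this gene. Whether the probes of A2M or A2M-AS1 also bind product of the other was not tested.

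Of 13 genes of the receptors and their partners, 2 rose and 4 fell at BKM120 IC90 (max) (46.2%, all genes 34.5%), 2 rose and 6 fell at BEZ235 max (61.5%, all genes 57.9%), and 3 rose and 3 fell at GDC0941 max (46.2%, all genes 43.9%). LRP1, the receptor that takes up A2M complexes, was dim. It had 11.2, 17.2, 19.1 and 17.9 at BKM120 IC90 (max), 30.6, 27.9, 28.3 and 26.7 at BEZ235 max, and 20.7, 28.5, 21.3 and 22.1 at GDC0941 max, against 13.4, 7.3, 7.7 and 11.4 in DMSO. All 4 DMSO values lay under 13.6, the mean signal a gene needed to be tested, so LRP1 passed that limit only through the treated groups and its differences are given without a test. They were 0.78 at BEZ235 max and 0.60 at GDC0941 max, with no overlap, and 0.32 at BKM120 IC90 (max), with overlap. With a pseudocount of 1 the first 2 were 1.46 and 1.17. In the counts above, LRP1 is among the genes that rose. LRPAP1, the chaperone of LRP1, differed by 0.09, -0.21 and 0.17 at the 3 highest levels, with adjusted p of 0.401, 0.0286 and 0.086, and as a mean over its probe sets by 0.18 at BEZ235 max and 0.31 at GDC0941 max (adjusted p 0.00522 and 2.09e-05), so its direction at BEZ235 max and its call at GDC0941 max depend on the probe set.

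HSPA5, the endoplasmic reticulum chaperone also reported as a surface receptor for activated A2M, had 1661.3, 1749.7, 1639.3 and 1767.7 at BKM120 IC90 (max), 1016.7, 1022.3, 985.9 and 988.1 at BEZ235 max, and 1564.5, 1472, 1692.6 and 1614.9 at GDC0941 max, against 2124.3, 2090.4, 2138.7 and 2022.4 in DMSO. It fell, with log2 differences of -0.29, -1.05 and -0.40 (SE 0.06 each, limma adjusted p 1.32e-04, 1.61e-17 and 7.35e-07). As a mean over its probe sets these were -0.47, -1.50 and -0.55. LRP8, a receptor of the same family that binds apolipoprotein E and reelin, had 304.2, 321.5, 284.7 and 303.5 at BKM120 IC90 (max), 182.3, 193, 178.2 and 181.8 at BEZ235 max, and 311.1, 315.7, 277.7 and 273.2 at GDC0941 max, against 469.8, 503.6, 460.5 and 502.8 in DMSO. It fell, with log2 differences of -0.65, -1.32 and -0.69 (SE 0.08 each; adjusted p 8.00e-08, 3.52e-16 and 1.17e-08). Both genes lay below DMSO on all 12 arrays.

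Of 12 ligands and receptors that signal through STAT3, 1 rose and 2 fell at BKM120 IC90 (max) (25%, all genes 34.5%), 2 rose and 5 fell at BEZ235 max (58.3%, all genes 57.9%), and 3 rose and 7 fell at GDC0941 max (83.3%, all genes 43.9%). IL24, a cytokine of the interleukin-10 family, had 308.3, 329.8, 364.6 and 342.9 at BKM120 IC90 (max), 779, 685.6, 730.6 and 735.9 at BEZ235 max, and 198.7, 196.5, 229.5 and 202.7 at GDC0941 max, against 116.7, 103.9, 103.4 and 137.8 in DMSO. It rose by 1.43, 2.52 and 0.77 (SE 0.08 each; adjusted p 6.91e-16, 5.68e-24 and 2.08e-09), and like A2M it was highest at BEZ235 max. Its correlation with A2M was 0.89 over the 40 arrays and 0.90 without the array with degraded RNA. At the lower levels IL24 was closer to DMSO, with 101, 103.2, 91.6 and 113.1 at BKM120 IC30, where A2M stood above DMSO on every array.

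IL6, the ligand that drives A2M in the rat, had 59.8, 54.9, 71.7 and 81.6 in DMSO, 30.6, 36.9, 33 and 37.3 at BKM120 IC30, 37.6, 29.9, 31.4 and 30.2 at IC50, and 65.8, 69.3, 56.3 and 61.7 at IC90 (max). It fell by 0.71 at IC30 (SE 0.12, adjusted p 3.98e-05) and by 0.77 at IC50 (SE 0.12, adjusted p 1.18e-05), where all its values lay below DMSO and all those of A2M above. At IC90 (max) the difference was -0.06 (adjusted p 0.75), with overlap. At BEZ235 max IL6 differed by 0.13 (adjusted p 0.394), and at GDC0941 max it fell by 0.67 (adjusted p 2.55e-05), with A2M above DMSO in both.

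IL6R, the interleukin-6 receptor, had 66.8, 79.7, 63.2 and 73.8 in DMSO, 113.1, 148.7, 118.7 and 163.3 at BKM120 IC30, 124.3, 142.7, 145.6 and 138.3 at IC50, and 100.8, 78.3, 59.1 and 90.1 at IC90 (max). It rose by 0.80 and 0.83 at the first 2 levels (SE 0.13 each; adjusted p 1.42e-05 and 9.28e-06) and differed by 0.16 at IC90 (max) (adjusted p 0.356), where it overlapped DMSO. It also rose by 1.13 at GDC0941 max (adjusted p 4.44e-09). IL6ST, the shared signalling chain, fell by 0.25 at BEZ235 max (adjusted p 8.51e-04) and differed by -0.14 (0.0926) and -0.16 (0.0448) at BKM120 IC90 (max) and GDC0941 max. OSMR, the oncostatin M receptor, fell, with log2 differences of -0.21, -0.28 and -0.26 at the highest levels of BKM120, BEZ235 and GDC0941, with adjusted p of 0.00294, 7.47e-05 and 2.33e-04. The receptor chain LIFR was too dim to test, with 0.7 to 14.4.

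Of 19 kinases, factors and brakes of the pathway, STAT5A left out, 4 rose and 3 fell at BKM120 IC90 (max) (36.8%, all genes 34.5%), 7 rose and 5 fell at BEZ235 max (63.2%, all genes 57.9%), and 6 rose and 4 fell at GDC0941 max (52.6%, all genes 43.9%). STAT3 itself differed by -0.01, -0.15 and 0.00 (SE 0.10 each; adjusted p 0.972, 0.177 and 0.977), and SOCS3, a brake that STAT3 induces, by -0.20, -0.04 and -0.02 (adjusted p 0.195, 0.803 and 0.884). STAT5B rose by 0.53, 0.64 and 0.52 (adjusted p 9.54e-09, 3.51e-11 and 1.10e-08). JAK3, a kinase of cytokine receptors, had 17.7, 14.5, 19 and 10.5 at BKM120 IC90 (max), 49.9, 53, 56.9 and 56.1 at BEZ235 max, and 27, 32.4, 33.3 and 33.7 at GDC0941 max, against 8.2, 6.6, 6.7 and 8.1 in DMSO. None of these groups overlapped DMSO, with log2 differences of 0.42, 1.58 and 1.02. Like LRP1 it lay under the limit for testing on all DMSO arrays, so no test is given, though it is counted among the genes that rose.

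Of the acute-phase and STAT3-response genes, 24 were on the array and 9 were tested, of which 4 rose and 1 fell at BKM120 IC90 (max) (55.6%, all genes 34.5%), 3 rose and 1 fell at BEZ235 max (44.4%, all genes 57.9%), and 4 rose and 3 fell at GDC0941 max (77.8%, all genes 43.9%). PIM1, a kinase gene induced by STAT factors, had 204.3, 175, 219 and 185.9 at BKM120 IC90 (max), 244.4, 245.5, 325.6 and 247 at BEZ235 max, and 179.5, 156.6, 176.5 and 158 at GDC0941 max, against 80.8, 86.8, 95 and 106.2 in DMSO. It rose by 0.97, 1.38 and 0.77 (SE 0.16 each; adjusted p 7.95e-06, 2.78e-09 and 1.61e-04). PTX3, a secreted pentraxin, had 263.7, 256.3, 239.2 and 220.3 at BKM120 IC90 (max), 111.6, 94.9, 104.6 and 111.2 at BEZ235 max, and 157.2, 178.4, 142 and 185.1 at GDC0941 max, against 463.7, 506.2, 454.2 and 473.5 in DMSO. It lay below DMSO on all 12 arrays and fell, with log2 differences of -0.91, -2.01 and -1.44 (adjusted p 2.51e-07, 2.33e-16 and 4.57e-12). SERPINA3, an acute-phase protease inhibitor, rose by 0.25 at BKM120 IC90 (max) (adjusted p 0.00108), differed by -0.04 at BEZ235 max (0.594) and fell by 0.36 at GDC0941 max (5.24e-06). The 9 tested genes thus did not share 1 direction.

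Of 26 endoproteases, which A2M can trap once secreted, 5 rose and 8 fell at BKM120 IC90 (max) (50%, all genes 34.5%), 8 rose and 11 fell at BEZ235 max (73.1%, all genes 57.9%), and 5 rose and 10 fell at GDC0941 max (57.7%, all genes 43.9%). MMP19, a matrix metalloproteinase, had 477.6, 468.7, 516.4 and 479.3 at BKM120 IC90 (max), 626.6, 585.3, 591.5 and 573.3 at BEZ235 max, and 605.9, 594.5, 656 and 604.8 at GDC0941 max, against 225.6, 189.3, 189.7 and 209.8 in DMSO. It rose by 1.19, 1.48 and 1.53 (SE 0.11 each; adjusted p 6.74e-11, 4.89e-14 and 5.03e-14), or by 0.65, 0.75 and 0.79 as a mean over its probe sets. MMP2, a gelatinase, rose by 0.50, 0.43 and 0.62 (adjusted p 5.37e-06, 2.65e-05 and 8.38e-08), and MMP14, its membrane-bound activator, differed by 0.04, -0.10 and 0.05 (adjusted p 0.639, 0.131 and 0.508).

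ADAM19, a membrane metalloprotease, had 385.7, 369.2, 381.2 and 419.9 at BKM120 IC90 (max), 146, 134.4, 137.8 and 141.3 at BEZ235 max, and 249.1, 222.5, 206.7 and 216.6 at GDC0941 max, against 769.7, 667.4, 729.7 and 697.9 in DMSO. It fell, with log2 differences of -0.85, -2.23 and -1.61 (SE 0.09 each; adjusted p 4.44e-09, 5.73e-21 and 2.31e-16), or of -0.51, -1.29 and -0.93 as a mean over its probe sets. The 3 groups and DMSO did not overlap one another. PLAT, tissue plasminogen activator, fell by 1.2 at BEZ235 max (adjusted p 9.93e-11).

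Of 16 other protease inhibitors, 7 rose and 1 fell at BKM120 IC90 (max) (50%, all genes 34.5%), 8 rose and 4 fell at BEZ235 max (75%, all genes 57.9%), and 8 rose and 3 fell at GDC0941 max (68.8%, all genes 43.9%), with median log2 differences of 0.09, 0.23 and 0.17. SERPINF1, a secreted serpin without protease-inhibiting activity, had 205.3, 197.4, 231.2 and 217.2 at BKM120 IC90 (max), 221.1, 224.4, 250.2 and 245.8 at BEZ235 max, and 390, 369.8, 397.4 and 392.6 at GDC0941 max, against 138.7, 170.3, 141.4 and 153.4 in DMSO. It rose by 0.46, 0.59 and 1.28 (SE 0.08 each; adjusted p 4.31e-05, 1.67e-07 and 3.78e-15). SERPINF1 ran in another order than A2M, since at BKM120 IC30 it had 338.8, 341.6, 340.8 and 315.3, above its values at IC90 (max). CST3, cystatin C, rose by 0.53, 0.72 and 0.64 (adjusted p 3.92e-06, 3.18e-09 and 8.48e-08). SERPINH1, a collagen chaperone of the serpin family, fell, with log2 differences of -0.33, -0.92 and -0.59 (adjusted p 1.38e-04, 1.70e-14 and 2.91e-09). Of the tissue inhibitors of metalloproteinases, TIMP2 rose by 0.21, 0.29 and 0.39 (adjusted p 0.00812, 1.42e-04 and 2.88e-06), and TIMP3 fell by 0.22 at BEZ235 max and by 0.23 at GDC0941 max (adjusted p 7.75e-04 and 5.56e-04).

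Of 11 growth factors and cytokines that A2M binds, 1 rose and 4 fell at BKM120 IC90 (max) (45.5%, all genes 34.5%), 2 rose and 3 fell at BEZ235 max (45.5%, all genes 57.9%), and 0 rose and 8 fell at GDC0941 max (72.7%, all genes 43.9%). TGFB3 fell, with log2 differences of -0.76, -0.56 and -0.73 (limma adjusted p 3.08e-05, 6.21e-04 and 3.66e-05), while TGFB1 differed by -0.17, -0.04 and 0.05 (limma adjusted p 0.234, 0.775 and 0.729). TGFB2 was called higher at BEZ235 max, and lost that call under quantile normalization (log2 difference 0.28, limma adjusted p 0.061). CXCL8, the neutrophil chemokine interleukin-8, had 92.2, 125.8, 112.5 and 103.7 at BEZ235 max and 85.1, 85.3, 75.7 and 97.8 at GDC0941 max, against 295.1, 278.5, 320.4 and 305.7 in DMSO, and fell by 1.35 at BEZ235 max and by 1.63 at GDC0941 max (adjusted p 2.13e-07 and 9.61e-09). VEGFA, which drives vessel growth, fell by 1.18 at BKM120 IC90 (max) and by 0.97 at GDC0941 max (adjusted p 3.18e-06 and 4.55e-05), and differed by -0.13 at BEZ235 max (adjusted p 0.572).

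Of 10 tested neighbours on the chromosome, 1 rose and 5 fell at BKM120 IC90 (max) (60%, all genes 34.5%), 0 rose and 3 fell at BEZ235 max (30%, all genes 57.9%), and 0 rose and 2 fell at GDC0941 max (20%, all genes 43.9%). M6PR, a receptor that sorts lysosomal enzymes and the tested gene named here that lies nearest to A2M without overlap, had 434.1, 473.9, 537.8 and 502.9 at BKM120 IC90 (max), 573.6, 534.5, 591.8 and 546.8 at BEZ235 max, and 497.1, 483.7, 494.1 and 505.2 at GDC0941 max, against 668.4, 618.2, 614.3 and 686.3 in DMSO. It fell, with log2 differences of -0.40, -0.20 and -0.37 (SE 0.05 each; adjusted p 2.33e-07, 0.00197 and 4.97e-07). KLRG1, whose span includes A2M, differed by -0.06, -0.17 and -0.18 (adjusted p 0.737, 0.188 and 0.195), and PHC1, a Polycomb gene, by -0.18, -0.08 and -0.03 (adjusted p 0.246, 0.589 and 0.873). C3AR1, the receptor of complement fragment C3a, fell, with log2 differences of -0.97, -0.82 and -0.85 (adjusted p 8.00e-11, 8.36e-10 and 9.72e-10).

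Between compounds at the levels named IC90, 21 of the 118 listed genes were higher and 30 lower in BEZ235 than in BKM120 (43.2%, all genes 45.2%, made up of 26.7% higher and 18.5% lower), 23 were higher and 32 lower in BEZ235 than in GDC0941 (46.6%, all genes 43%, made up of 23% higher and 20% lower), and 22 were higher and 22 lower in BKM120 than in GDC0941 (37.3%, all genes 30%, made up of 11.7% higher and 18.3% lower). Again STAT5A, LRP1 and JAK3 are among these 118 genes. IL24 had 345.8, 324.8, 356.5 and 345.1 with BEZ235, 308.3, 329.8, 364.6 and 342.9 with BKM120, and 141.4, 122.4, 152 and 122 with GDC0941. It stood 1.26 higher in BEZ235 than in GDC0941 (SE 0.08, adjusted p 1.07e-14) and 1.23 higher in BKM120 than in GDC0941 (SE 0.08, adjusted p 2.91e-14), while BEZ235 and BKM120 differed by 0.03 (adjusted p 0.813). A2M had the same order, with BEZ235 also above BKM120.

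HSPA5 had 993.7, 1012.4, 1018.2 and 913.9 with BEZ235 at IC90, 1661.3, 1749.7, 1639.3 and 1767.7 with BKM120 at IC90 (max), and 1964.1, 2009.5, 1902 and 1830.5 with GDC0941 at IC90. It was lower in BEZ235 than in BKM120 by -0.78 (SE 0.06, limma adjusted p 1.41e-13) and than in GDC0941 by -0.96 (SE 0.06, limma adjusted p 8.83e-16). As a mean over its probe sets these were -1.07 and -1.39. ADAM19 was lower in BEZ235 by -1.31 against BKM120 and by -1.46 against GDC0941 (SE 0.09 each; adjusted p 5.82e-14 and 3.99e-15), or by -0.60 and -0.72 as a mean over its probe sets. LRP8 was lower by -0.84 and -1.13 (SE 0.08 each; adjusted p 1.29e-10 and 8.84e-14). PIM1 was higher by 0.99 in BEZ235 than in GDC0941 (SE 0.16, adjusted p 3.92e-06) and by 0.70 in BKM120 than in GDC0941 (SE 0.16, adjusted p 7.26e-04).

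The array with degraded RNA also stood apart within BEZ235 IC50 for listed genes, and not always in the direction of A2M. MMP19 had 519.4, 561.9, 264.2 and 454.1 and PIM1 227.4, 208.1, 93.7 and 252.2, with the lowest value on that array, while HSPA5 had 1694.6, 1615.9, 2167.3 and 1592, with the highest value on it.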

How the data were processed

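RNA of 40 samples was measured on 1-colour arrays of 54675 probe sets, after amplification of 50 ng of total RNA per the labels' protocols. The deposited intensity values came from MAS5 per the submitters' processing notes (no version given), and each array's trimmed mean was 150. The arrays' number, 4 in each of 10 groups, limits the precision. No 2 arrays correlated above 0.998, and none was left out unless a sentence says so.

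Of the probe sets, 41091 carried 1 gene symbol, 1801 several, 11721 none and 62 were controls. Each gene was represented by its brightest probe set on the log2 scale, cross-hybridising designs being taken only in the absence of others. Values became log2(value + 16) without further normalization. Genes under the 40th percentile (mean signal 13.6) were set aside, and the other 11865 entered limma 3.58.1 (R 4.3.3) in 1 model of the 10 group means (30 residual degrees of freedom, variance trend), with Benjamini-Hochberg adjustment within each of 12 comparisons and calls at an adjusted p under 0.05. The script was tested on simulated data.

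The genes described, the lists and the motifs were chosen with earlier results of these data known. Named by rule were A2M, the 12 and 8 genes most like and unlike it, the listed genes with the largest called, non-overlapping differences (up to 4 a list at each highest level, up to 3 for each IC90 pair), and a fixed set of genes whatever their values. Not all of the named genes are described at each level, among them JAK1, TIMP1 and TGFB2 of the fixed set. Sequences came from RefSeq. No A2M promoter was among them.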

Additional observations from a re-analysis of the deposited data

Results flagged for a closer look

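In 80 groups of 4 arrays, the gap of the outermost array to its nearest neighbour was set against the whole range of the group. The limit was Dixon's critical value at the 95% level, which chance passes in about 1 group in 20. Both A2M probe sets were checked in every group. In DMSO and at the 3 highest levels, WHRN, BBS1, STAT5A, CDC6, SPRR2B, C5, LRP1, HSPA5, LRP8, MMP19, ADAM19, SERPINF1, IL24, PIM1 and M6PR were checked. Other genes given by array, such as TXNIP, CRBN, CDC25A, IL6 and PTX3, were not checked. The limit was passed in 3 of the 80 groups. PIM1 at BEZ235 max had 325.6 on 1 array and 244.4, 245.5 and 247 on the others (ratio 0.968). The dim A2M probe set had 4.4 on 1 array of BKM120 IC90 (max) and 1.4, 1.4 and 1.8 on the others (0.867), and 21.3 on 1 array of BEZ235 IC50 and 1.1, 2.9 and 4.3 on the others (0.842). The array with 21.3 is not the one with degraded RNA. The A2M value of 376 on the degraded array came to 0.817, below the limit.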

How the results depend on the processing

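The direction of A2M against DMSO held in all 9 treatments under pseudocounts of 1 and 64, quantile normalization, leaving out the degraded array and leaving out each array. With a pseudocount of 1 the log2 differences were 1.02 at BKM120 IC30, 2.22 at BKM120 IC90 (max), 2.8 and 3.03 at BEZ235 IC90 and max, and 1.21 and 2.11 at GDC0941 IC90 and max. With a pseudocount of 64, from the lowest to the highest level, they were 0.61, 0.55 and 1.52 for BKM120, 1.22, 2.02 and 2.22 for BEZ235 and 0.58, 0.74 and 1.43 for GDC0941, and at IC90 1.28 for BEZ235 over GDC0941 and 0.78 for BKM120 over GDC0941. The dim A2M probe set, at 1.1 to 21.3, gave -0.26, 0.086 and -0.29 for BKM120, -0.0051, 0.32 and 0.22 for BEZ235 and 0.045, 0.16 and 0.36 for GDC0941, -0.091 and -0.050 for BEZ235 IC50 over BKM120 and GDC0941 IC50, 0.16 for BEZ235 IC90 over GDC0941 IC90 and -0.45 for BKM120 IC90 (max) over GDC0941 IC90. The cause was not tested.

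Leaving out each array in turn gave A2M differences of 0.81 to 0.93, 0.72 to 0.85 and 1.92 to 2.04 for BKM120, 1.42 to 1.76, 2.48 to 2.6 and 2.70 to 2.82 for BEZ235 and 0.77 to 0.89, 0.98 to 1.10 and 1.82 to 1.97 for GDC0941. The 12 genes most like A2M depended on the measure. Of them 5 were in the first 12 by Spearman's rho, 6 with means over probe sets, 4 over the 10 group means, 4 over the 36 treated arrays, 0 by deviations from group means and 0 by those deviations over 39 arrays, the last chosen after seeing the data. Leaving out each replicate number kept 6 to 10 of them, with 6 when replicate 3 was left out.

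Among the listed genes, testing only genes above the 60th percentile, which tests fewer genes, gave 29 calls at BKM120 IC30, 28 at BKM120 IC50, 24 at GDC0941 IC50, 36 for BEZ235 over GDC0941 and 25 for BKM120 over GDC0941 at IC90. The 8 arrays of BEZ235 IC50 and DMSO alone gave 34 in place of 78. Without the degraded array, calls against DMSO numbered 51, 53 and 65 at BKM120 IC30, IC50 and IC90 (max), in place of 45, 45 and 55. They numbered 85 and 77 at BEZ235 IC90 and max, in place of 76 and 72. At GDC0941 IC50 and IC90 they numbered 46 and 58, in place of 37 and 48. Means over probe sets turned LRPAP1 at BEZ235 max to 0.18 and RIMKLB to 0.038 at BEZ235 max, 0.038 for BEZ235 over BKM120, 0.11 for BEZ235 over GDC0941 and 0.068 for BKM120 over GDC0941 at IC90. Of 186 called values of named genes, 153 kept the call under every alternative and 33 lost it under at least 1. Same-numbered arrays deviated together in 26 of 180 pairs (correlation over 0.1, mean -0.01), so the numbers do not pair the samples. A replicate block gave 44 calls at BKM120 IC30 and 72 at BEZ235 max, against 45 and 72 without it.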
